A study of Mus musculus with 6 samples.

Results

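In BV2, an immortalized mouse microglial cell line, expression was examined for the genes that make eicosanoids, the signaling lipids derived from arachidonic acid, and for the prostaglandin receptor gene Ptger4. The group was set by name, with earlier results of these data known, and held 10 genes. They were Pla2g4a, Ptgs1, Ptgs2, Ptges, Hpgds, Tbxas1, Alox5, Alox5ap, Ltc4s and Ptger4, and all were found among the 46095 gene symbols of the count table. The CON group was 3 libraries of untreated BV2 cells, and the sTREM-1 group was 3 libraries of BV2 cells given 1 μg/mL recombinant sTREM-1, the soluble form of TREM-1, for 6 h. Cells of both groups came from the same line, so the libraries describe cultures of 1 line and not of microglia from separate animals, and p-values measure the spread between these libraries, which may be technical. The comparison addressed what sTREM-1 does to microglial cells.

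Eicosanoid synthesis starts when a phospholipase A2 frees arachidonic acid from membrane lipids. The cyclooxygenases turn it into PGH2, from which terminal synthases make PGE2, PGD2 or thromboxane, while 5-lipoxygenase, helped by its activating protein, turns it into leukotrienes. Microglia and macrophages are known for inducing cyclooxygenase-2 under inflammatory stimuli, and the PGE2 that follows acts back on them through cAMP-raising receptors such as EP4.

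The libraries held 40070633 to 45877107 counts each, and 14120 genes were tested. Of the 12 microglia and macrophage markers that were examined, Itgam, Cd68, Csf1r, Ptprc, Tyrobp, Trem2 and Adgre1 were all abundant, Cx3cr1, Tmem119 and P2ry12 were at mean levels below 2 CPM (library counts scaled to a common total) in both groups, and Aif1 and Sall1 were listed at 0. The 10 protein-coding genes nearest to Aif1 were also listed at 0, as were Bag6, Csnk2b and Clic1, which most cells use, so the 0 of Aif1 does not describe the cells. The microglia and macrophage markers summed to between 2678 and 2705 CPM in the CON group and to between 2960 and 3029 CPM after sTREM-1, and 5 of the 10 tested were called higher, against 16.5% of all genes tested. Csf1r, the receptor for colony-stimulating factor 1, made up most of this gain, with means of 521 CPM in CON and 753 CPM after sTREM-1. Cd68 and Tyrobp did not pass the test and had lower means after sTREM-1, 605 against 589 CPM and 300.4 against 293 CPM. All 5 mast cell markers were at 0 counts in every library, and the 4 neuron markers together stayed below 0.28 CPM. Genes near the mast cell markers were not examined as those near Aif1 were. The 4 astrocyte markers summed to at most 0.465 CPM in CON and 0.479 CPM after sTREM-1, and the 4 T cell markers to at most 0.0244 and 0.0657 CPM. The 4 endothelial markers summed to between 1.86 and 2.61 CPM in CON and to between 1.92 and 2.49 CPM after sTREM-1. Whether the shift in the microglia markers had a part in the results below was not tested.

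After sTREM-1, 5 of the 8 tested eicosanoid genes changed when called at 0.05, with p-values of edgeR's quasi-likelihood test adjusted over all 14120 genes by Benjamini-Hochberg. Ptgs2, Hpgds and Pla2g4a fell, and Alox5ap and Ptger4 rose. Ptgs1, Ptges and Tbxas1 did not pass the test, and Alox5 and Ltc4s had too few counts to be tested. Among all genes tested 30.5% passed at this threshold, 16.5% higher and 14.1% lower; calls were thus common in this comparison. The groups did not overlap for 6 of the 8 tested genes, against 40.7% of all tested genes. By an unadjusted p under 0.05, 6 of the 8 passed, against 38.7% of all genes. With a change of at least 1.2-fold as well as an adjusted p under 0.05, 4 of the 8 passed, against 10.7% of all genes. Because the genes were chosen with earlier results known, these shares are a description and not a test of the group. The median log2 fold change was 0.09 over these 8 genes and -0.00 over all tested genes. No direction is read from these medians, because calls among the 8 went both ways and scaling between libraries centres all genes near 0. In bulk RNA, fewer cells that express a gene and less RNA per cell cannot be told apart.

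**Figure D1:**
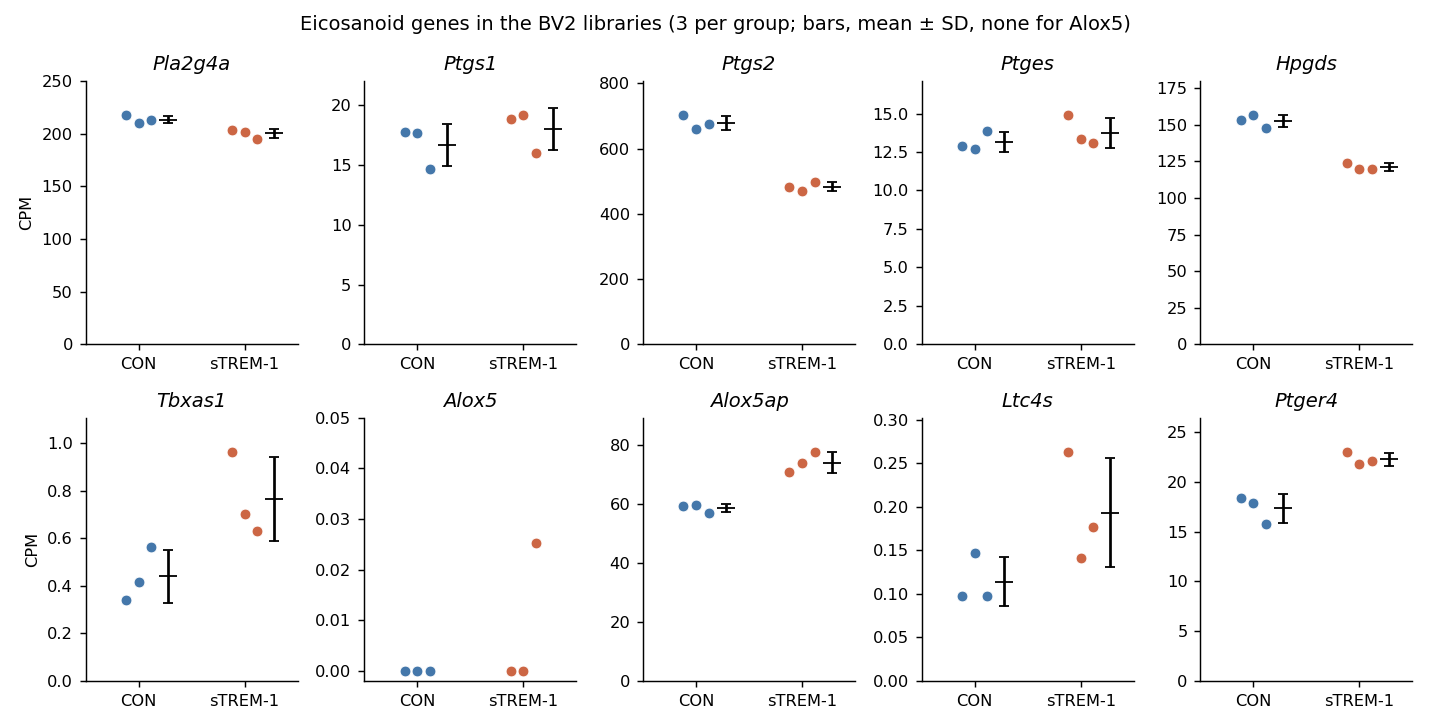
CPM of each of the 10 genes on the vertical axis, with 1 panel per gene and its own axis, for the 3 CON (blue) and 3 sTREM-1 (orange) libraries; black bars are mean ± SD, left out for Alox5. Ptgs2, Hpgds and Pla2g4a lie lower in every sTREM-1 library than in every CON library, Alox5ap, Ptger4 and Tbxas1 lie higher, and the groups overlap for Ptgs1 and Ptges.

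The first step is represented by Pla2g4a, which encodes cytosolic phospholipase A2 alpha, the enzyme that selects arachidonic acid. Pla2g4a was at 218, 210.2 and 213 CPM in the CON libraries and at 204, 202 and 196 CPM in the sTREM-1 libraries. Every sTREM-1 library was below every CON library, but the gap was narrow. The log2 fold change was -0.09 (adjusted p = 0.00972 by edgeR, standard error 0.027), so Pla2g4a fell by 6.16%. This call rested on CON replicate 1, without which the log2 fold change was -0.08 with an adjusted p of 0.0667 in edgeR.

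Among the genes of this group that passed the test, the cyclooxygenase gene Ptgs2 showed the largest change. Ptgs2 encodes cyclooxygenase-2, the inducible enzyme, and was at 702, 661 and 674 CPM in the CON libraries and at 482, 469 and 498 CPM in the sTREM-1 libraries. All 3 sTREM-1 libraries were far below all 3 CON libraries, and the distance between the groups exceeded the spread within either of them. The mean went from 679 ± 21.0 CPM to 483 ± 14.5 CPM (SD, n = 3 each). The log2 fold change was -0.49 (adjusted p = 1.82e-15 by edgeR, standard error 0.025), so Ptgs2 fell by 28.9%. Its change was at least as large as that of 91.3% of the tested genes, and its mean level was at least as high as that of 98.9% of them.

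Ptgs1 encodes cyclooxygenase-1, the constitutive enzyme. It was at 17.8, 17.7 and 14.7 CPM in the CON libraries and at 18.9, 19.2 and 16.0 CPM in the sTREM-1 libraries. The groups overlapped, since sTREM-1 replicate 3 lay below CON replicates 1 and 2. The log2 fold change was 0.11 with a 95% interval from -0.06 to 0.28 (edgeR quasi-likelihood adjusted p = 0.352), an interval that as a fold reaches from 0.960 to 1.22. Within single libraries there were 39.5, 37.4 and 46.0 Ptgs2 counts for each Ptgs1 count in the CON group and 25.5, 24.5 and 31.1 after sTREM-1. The ratio, which does not depend on scaling between libraries, was thus lower in each sTREM-1 library than in any CON library. Its mean was 41.0 ± 4.45 in the CON group and 27.0 ± 3.54 after sTREM-1 (SD, n = 3 each), given as a description without a test. Ptgs2 transcripts still exceeded Ptgs1 transcripts by far in both groups.

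**Figure D2:**
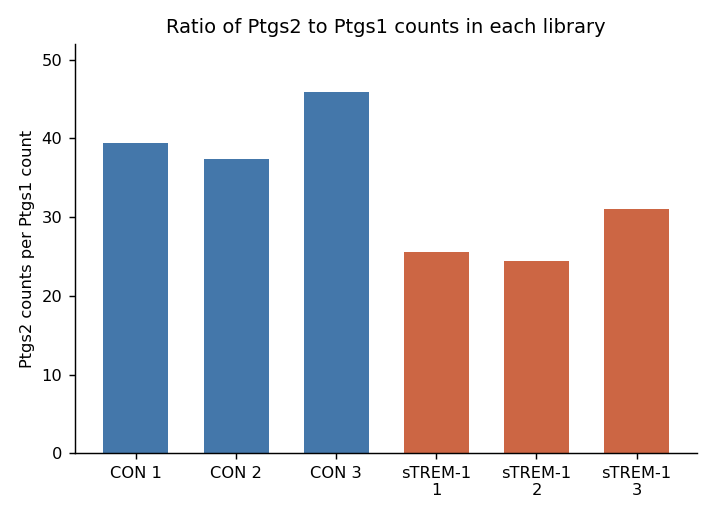
Number of Ptgs2 counts per Ptgs1 count (vertical axis, from 0) in each of the 3 CON (blue) and 3 sTREM-1 (orange) libraries, 1 bar per library. The CON bars stand between 37.4 and 46.0 and the sTREM-1 bars between 24.5 and 31.1.

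The 250 bases before the RefSeq start site of both cyclooxygenase genes are shown here because one gene fell and the other did not pass the test. They were read from a RefSeq table of GRCm38.p6, for Ptgs2 at chr1:150099781-150100030 and for Ptgs1 at chr2:36230176-36230425, both on the plus strand, and capitals mark matches to any of 10 motifs.
Ptgs2: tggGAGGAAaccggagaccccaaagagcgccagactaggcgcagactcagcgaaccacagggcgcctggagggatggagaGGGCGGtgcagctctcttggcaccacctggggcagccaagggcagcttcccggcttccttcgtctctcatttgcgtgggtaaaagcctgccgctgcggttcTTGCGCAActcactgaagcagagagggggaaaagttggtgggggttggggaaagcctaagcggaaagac
Ptgs1: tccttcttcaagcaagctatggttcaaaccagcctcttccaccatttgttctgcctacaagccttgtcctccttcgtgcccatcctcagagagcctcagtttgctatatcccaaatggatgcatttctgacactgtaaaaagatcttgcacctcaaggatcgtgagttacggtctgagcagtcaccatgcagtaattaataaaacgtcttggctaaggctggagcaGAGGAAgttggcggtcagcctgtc
The motifs were searched on both strands and were the TATA box TATAAA, the GC box GGGCGG, the cAMP response element TGACGTCA and its core TGACG, AP-1 TGANTCA, the PU.1 core GAGGAA, C/EBP TTGCNNAA, NF-kB by its GGGA and CC ends 4 bases apart, the E-box CACGTG and STAT TTCNNNGAA. Counted back from the start site, Ptgs2 held a C/EBP match at -69, a GC box at -170 and a PU.1 core at -247, and Ptgs1 held only a PU.1 core at -24. Among the 32851 promoters of the table, 9.56% held the C/EBP letters, 32.7% the GC box and 23.3% the PU.1 core. These matches are descriptions of sequence and not of binding. Bases outside these 250, including those after the RefSeq start site, were not searched, so a motif without a match here may still lie near the gene. Ptgs2 and Ptgs1 also differed after the stop codon. In the GENCODE M21 transcript of longest coding sequence, the 3′ UTR of Ptgs2 held 14 copies of the pentamer ATTTA, known as part of AU-rich elements that mark unstable mRNAs, on the sense strand of 2445 bases, and that of Ptgs1 held 0 in 921 bases. The median among 10900 tested genes was 1, and 97.8% of them held fewer than Ptgs2. Per length, Ptgs2 held 5.73 copies per kb, and 94.9% of these genes held fewer. Pla2g4a was denser, with 4 copies in 443 bases or 9.03 per kb (98.6% of genes held fewer), and Alox5ap, which rose, held 2 in 419 bases or 4.77 per kb (92.5%). The nonamer TTATTTATT occurred once in Ptgs2 and at least once in 7.14% of these genes.

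The terminal synthases did not move together. Hpgds encodes hematopoietic prostaglandin D synthase, which makes PGD2, and was at 153, 156 and 148 CPM in the CON libraries and at 124, 119.5 and 119.8 CPM in the sTREM-1 libraries. Every sTREM-1 library was below every CON library, with little spread inside the groups. Hpgds fell by 20.6% (log2 fold change -0.33 with a standard error of 0.031, adjusted p = 6.08e-10 by edgeR), and the mean went from 153 ± 4.38 CPM to 121 ± 2.59 CPM (SD, n = 3 each).

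Ptges encodes microsomal prostaglandin E synthase-1, the inducible PGE2 synthase that is often coupled to cyclooxygenase-2. It was at 12.9, 12.7 and 13.9 CPM in the CON libraries and at 14.9, 13.3 and 13.1 CPM in the sTREM-1 libraries, and the groups overlapped. The log2 fold change of 0.07 had a 95% interval from -0.10 to 0.24 (edgeR quasi-likelihood adjusted p = 0.612). A fall of the size seen for Ptgs2 lay outside this interval, although the difference between the genes was not itself tested.

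Tbxas1 encodes thromboxane A synthase and was close to the lower limit of what could be tested. It had 14, 17 and 23 counts in CON and 44, 30 and 25 in sTREM-1 libraries, or 0.342 to 0.563 CPM against 0.630 to 0.963 CPM. The groups did not overlap, yet sTREM-1 replicate 3 and CON replicate 3 lay almost side by side. The log2 fold change of 0.80 had a 95% interval from 0.00017 to 1.60, and it did not pass the test (edgeR quasi-likelihood adjusted p = 0.129, from 0.0803 to 0.406 over 11 alternatives). For each Ptges count there were 0.0333 ± 0.00704 Tbxas1 counts in the CON group and 0.0553 ± 0.00849 after sTREM-1 (SD, n = 3 each).

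The promoter of Hpgds, the synthase gene that fell, lies at chr6:65144731-65144980 on the minus strand of GRCm38.p6. It is printed from RefSeq on the strand of the gene, with the same motifs in capitals, to be set beside that of Ptgs2.
Hpgds: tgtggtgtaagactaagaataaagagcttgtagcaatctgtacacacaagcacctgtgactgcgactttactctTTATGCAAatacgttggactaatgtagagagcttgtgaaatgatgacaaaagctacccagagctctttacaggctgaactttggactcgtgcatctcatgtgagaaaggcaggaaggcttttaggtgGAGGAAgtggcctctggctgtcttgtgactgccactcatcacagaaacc
It held a C/EBP match at -176 and a PU.1 core at -49. Ptgs2 and Hpgds, which both fell, were the ones among the 9 eicosanoid genes with a promoter in the table that matched the C/EBP letters, which 9.56% of all promoters hold. Pla2g4a, which also fell, did not match them in either of its 2 RefSeq promoters. Alox5ap, which rose, had no promoter in the table, which left Ptger4 as the single gene called higher that could be compared. With 10 motifs searched over so few genes, no link between a motif and a direction was tested. The 3′ UTR of Hpgds held 2 copies of ATTTA in 2631 bases and those of Ptges and Tbxas1 held 0.

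In the 5-lipoxygenase arm the helper was present while the enzyme was nearly undetected. Alox5, which encodes 5-lipoxygenase, had no count in any CON library and 1 count in sTREM-1 replicate 3 alone. A count of 0 allows up to 3 counts, which is 0.0731 to 0.0735 CPM in the CON libraries, so lower expression was not detectable at this depth. Of the 10 protein-coding genes nearest to Alox5, 5 had 0 counts in every library and the most abundant summed to 59693 counts over the 6 libraries, so the gene did not lie in a stretch without counts.

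Alox5ap encodes the 5-lipoxygenase activating protein FLAP, a membrane protein that presents arachidonic acid to the enzyme. It was at 59.2, 59.8 and 57.0 CPM in the CON libraries and at 70.8, 73.9 and 77.7 CPM in the sTREM-1 libraries. All sTREM-1 libraries were above all CON libraries. Alox5ap rose by 26.3%, from 58.7 ± 1.45 CPM to 74.1 ± 3.44 CPM (SD, n = 3 each), with a log2 fold change of 0.34 (adjusted p = 1.07e-07 by edgeR, standard error 0.040).

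Ltc4s encodes leukotriene C4 synthase, which joins glutathione to leukotriene A4. It had 4, 6 and 4 counts in CON and 12, 6 and 7 in sTREM-1 libraries, and did not pass the filter on low counts. The CPM values overlapped between the groups, from 0.0977 to 0.146 against 0.141 to 0.263. Without the filter its adjusted p was 0.614 in edgeR, and at so few counts a difference was not detectable.

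Ptger4 encodes EP4, the PGE2 receptor that couples to cAMP. It was at 18.4, 17.9 and 15.7 CPM in the CON libraries and at 23.0, 21.8 and 22.1 CPM in the sTREM-1 libraries. The lowest sTREM-1 library was above the highest CON library. Ptger4 rose by 28.6%, from 17.3 ± 1.43 CPM to 22.3 ± 0.639 CPM (SD, n = 3 each), with a log2 fold change of 0.36 (adjusted p = 0.000188 by edgeR, standard error 0.071). Of its 6648 annotated exonic bases 1015 are shared on the opposite strand with the pseudogene Gm15937, which had 2 to 14 counts per library, and 82 with Ttc33, which had 2756 to 3252. Whether counting used the strand is not given in the sources used here, and reads in the shared bases cannot be told apart without it. Alox5ap shares 189 of 1420 exonic bases with an antisense gene in the same way. The promoter of Ptger4, the receptor gene that rose, lies at chr15:5244188-5244437 on the minus strand of GRCm38.p6 and is given from RefSeq for contrast with those of the genes that fell.
Ptger4: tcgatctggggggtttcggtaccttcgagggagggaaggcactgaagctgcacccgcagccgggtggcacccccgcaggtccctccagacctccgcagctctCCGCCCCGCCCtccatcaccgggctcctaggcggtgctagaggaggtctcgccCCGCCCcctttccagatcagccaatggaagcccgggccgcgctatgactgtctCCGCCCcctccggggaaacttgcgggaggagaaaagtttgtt
It held 4 GC boxes, at -148, -143, -95 and -42, of which the first pair share a base, and no match to the other motifs. The 3′ UTR of Ptger4 held 5 copies of ATTTA in 1233 bases, so copies of this pentamer were found in genes that fell and in genes that rose.

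To set the genes beside each other, CPM were divided by the annotated exonic length in kilobases. On this scale the CON group had the order Ptgs2 with 148 ± 4.59, Alox5ap with 41.3 ± 1.02, Pla2g4a with 33.4 ± 0.581 and Hpgds with 23.7 ± 0.681 CPM per kb (SD, n = 3). Far below them followed Ptgs1 with 4.30 ± 0.452, Ptges with 3.35 ± 0.164 and Ptger4 with 2.61 ± 0.215 CPM per kb. Ltc4s and Tbxas1 were at 0.112 ± 0.0276 and 0.0484 ± 0.0124 CPM per kb, and Alox5 was at 0. No neighbours in this order overlapped between libraries in the CON group. After sTREM-1 the order was the same, with Ptgs2 at 105 ± 3.16 and Alox5ap at 52.2 ± 2.42 CPM per kb, but Ptges with 3.50 ± 0.251 and Ptger4 with 3.35 ± 0.0962 CPM per kb no longer differed beyond their spread. The exonic length joins all annotated isoforms, which lowers the value of genes with many exons that BV2 cells may not use.

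**Figure D3:**
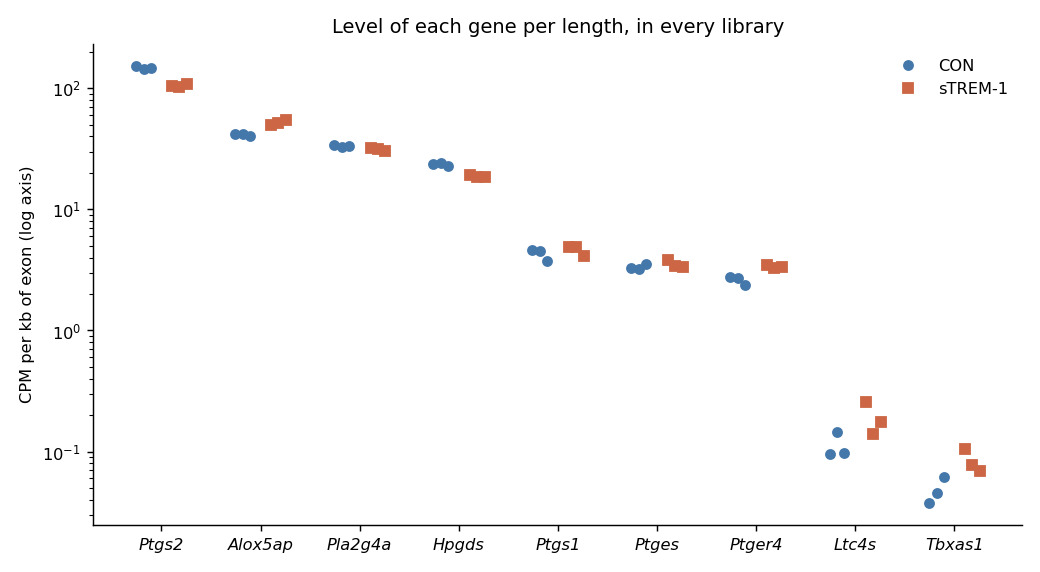
CPM per kilobase of annotated exon on a log axis for 9 genes in order of their CON mean, with CON libraries as blue circles and sTREM-1 libraries as orange squares. Alox5 is left out because it was at 0 in 5 of 6 libraries. Ptgs2 lies highest in both groups, and Ptges and Ptger4 meet after sTREM-1.

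Of 84 other genes of the pathway, 40 were tested, 11 rose, 5 fell and 24 did not pass, so 40.0% passed, against 30.5% of all genes tested. These lists too were chosen with earlier results of these data known, so the shares are a description. Of the 44 that were not tested, 28 had 0 counts in every library, as had 23335 of the 46095 genes of the count table. Whether these 28 lay in stretches without counts was not checked. Among the phospholipases A2 2 of 9 tested genes fell and none rose, against 14.1% lower and 16.5% higher among all genes tested. Pla2g5, a secreted enzyme, was at 188, 183 and 180.4 CPM in the CON libraries and at 125, 121 and 125 CPM after sTREM-1. Pla2g2e, another secreted enzyme, was at 71.3, 75.0 and 73.0 CPM and then at 52.2, 52.2 and 55.8 CPM. Neither gene overlapped between groups, and their log2 fold changes were -0.57 (adjusted p = 1.87e-15 by edgeR, standard error 0.029) for Pla2g5 and -0.45 (adjusted p = 2.73e-10 by edgeR, standard error 0.040) for Pla2g2e. Both were larger falls than that of the cytosolic Pla2g4a, a difference between genes that was not tested.

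Of the genes that handle arachidonic acid, 4 of 5 tested rose, against 16.5% of all genes tested, and Daglb alone of the 4 changed by at least 1.2-fold. The diacylglycerol lipase gene Daglb had a log2 fold change of 0.37, Lpcat3, which puts arachidonic acid back into phospholipids, had 0.18, and Acsl4, which activates it with coenzyme A, had 0.08 (edgeR quasi-likelihood adjusted p = 0.000137, 0.00182 and 0.0106). The rise of Acsl4 did not pass without CON replicate 3 (0.07, adjusted p = 0.0527 in edgeR) or without sTREM-1 replicate 2 (0.06, adjusted p = 0.0739 in edgeR). Of the 5 further prostanoid synthase genes tested, Akr1b3, an aldose reductase, rose with a log2 fold change of 0.20 (edgeR quasi-likelihood adjusted p = 0.00154) and 4 did not pass.

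Genes for the transport and breakdown of prostanoids rose in 3 of 4 tested cases, against 16.5% of all genes tested, and Ptgr1 alone of the 3 changed by at least 1.2-fold. Ptgr1, a reductase that inactivates prostaglandins and leukotriene B4, was at 26.3, 24.6 and 25.0 CPM in the CON libraries and at 40.3, 38.9 and 41.1 CPM after sTREM-1. Every sTREM-1 library was above every CON library, with a log2 fold change of 0.66 (adjusted p = 1.45e-11 by edgeR, standard error 0.051). Ptgr2, a related reductase, and Abcc4, an exporter of prostaglandins, had log2 fold changes of 0.16 and 0.21 (edgeR quasi-likelihood adjusted p = 0.000811 and 0.00332). Hpgd, the main prostaglandin dehydrogenase, was listed at 0, and whether it lay in a stretch without counts, as Aif1 did, was not checked.

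Of the other prostanoid receptors, only Ptgir, Ptger1 and Ptger2 could be tested, the latter pair at under 1 CPM. Ptgir, the prostacyclin receptor, which also couples to cAMP, was at 487, 492 and 499 CPM in the CON libraries and at 419.8, 409.6 and 425 CPM after sTREM-1. It was lower in every sTREM-1 library than in any CON library, with a log2 fold change of -0.24 (adjusted p = 1.89e-09 by edgeR, standard error 0.023), while Ptger4 rose as described. Ptgir was thus the 1 of 3 tested in this list that passed, against 30.5% of all genes tested.

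On the leukotriene side, 2 of 5 tested enzyme and transport genes rose and 1 fell, against 16.5% higher and 14.1% lower among all genes tested. Abcc1, the exporter of leukotriene C4, had a log2 fold change of 0.19 and Mgst2, which can make leukotriene C4, had 0.32 (edgeR quasi-likelihood adjusted p = 3.55e-06 and 0.000825). Dpep2, a dipeptidase of leukotriene D4, had a log2 fold change of -0.11 (edgeR quasi-likelihood adjusted p = 0.0400). It lost its call without CON replicate 1 (-0.08, adjusted p = 0.199 in edgeR), without CON replicate 2 (-0.10, adjusted p = 0.0844), without sTREM-1 replicate 1 (-0.09, adjusted p = 0.143) and without sTREM-1 replicate 3 (-0.11, adjusted p = 0.0632). Cysltr1, the receptor for cysteinyl leukotrienes, was at 9.79, 9.53 and 7.91 CPM in the CON libraries and at 14.4, 14.4 and 12.6 CPM after sTREM-1. It was higher in every sTREM-1 library than in any CON library, with a log2 fold change of 0.61 (adjusted p = 8.61e-06 by edgeR, standard error 0.095), and was the single one of 4 tested leukotriene and lipoxin receptors that passed, against 30.5% of all genes tested.

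Of the other lipoxygenases 1 of 6 was tested. Aloxe3, an epidermal-type lipoxygenase, had 102 counts over the CON libraries and 34 over the sTREM-1 libraries, a log2 fold change of -1.62 (adjusted p = 0.00477 by edgeR, standard error 0.44) at under 1 CPM. Of the 4 tested cytochrome P450 and epoxide hydrolase genes 0 passed in edgeR or in DESeq2, and 0 had an unadjusted p under 0.05 in either. Among all genes tested in edgeR, 30.5% passed and 38.7% had an unadjusted p under 0.05, and the difference from these shares was not tested.

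**Figure D4:**
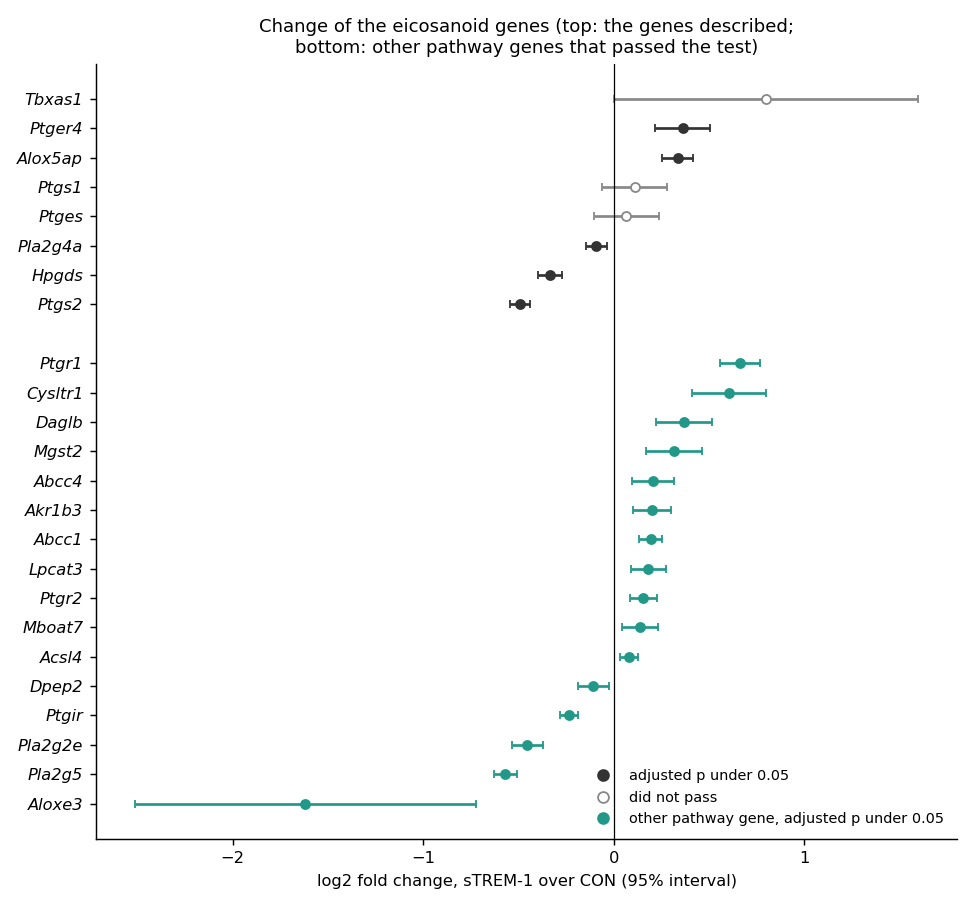
log2 fold change of sTREM-1 over CON on the horizontal axis, with 95% intervals from edgeR, for the 8 tested eicosanoid genes (top, filled where the adjusted p was under 0.05) and for the 16 other pathway genes that passed (bottom, green). Ptgs2, Hpgds and Pla2g4a lie left of 0 and Alox5ap and Ptger4 right of it, and the intervals of Ptgs1 and Ptges cross 0.

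Ptgs2 was the called gene with the largest change in this group. By the correlation of log2 CPM over the 6 libraries, the genes most like it among 9047 genes of at least 10 CPM outside the group were Slc6a8, Plec and Gdf15, with Pearson's r of 0.999, 0.997 and 0.997. These correlations are a description, the 6 points fall into the same 2 groups for every gene, and 557 genes had an r of at least 0.95.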

How the data were processed

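RNA of BV2 cells was sequenced in 6 libraries, and the labels do not say whether each came from a separate culture. The deposited values are raw counts for each gene symbol, deposited by the authors. The methods name FastQC for the reads and RSEM for expression levels in FPKM, and do not say how the counts were made. The submitters' processing notes name HISAT2 2.0.4 and the human builds hg19 and GRCh38, with no role, although cells and symbols are mouse. The mouse build, annotation and strand setting are not given in the sources used here, and gene coordinates are printed only for RefSeq promoters of GRCm38.p6, found for 9 of 10 genes. Labels and columns give 3 samples per group, and the methods give another number.

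The test was edgeR's quasi-likelihood test (version 4.0.16, R 4.3.3) between the 2 groups, on genes kept by filterByExpr at a minimum count of 10 and with TMM scaling. Benjamini-Hochberg adjustment ran over all tested genes, and calls were made at 0.05. CPM use TMM-scaled library sizes, and log2 CPM used a prior count of 2. A standard error is the log2 fold change over the square root of F, and 95% intervals from the t distribution. A count of 0 was given an upper limit of 3 counts, which covers counting error only. On simulated counts with 200 of 13941 genes changed 1.5-fold in the comparison of sTREM-1 with CON, 76.5% were recovered and 8.93% of calls were false. This share of false calls was above the threshold of 0.05. Recovery of changes smaller than 1.5-fold, such as those of the 5 called eicosanoid genes, was not tested. Recovery with a share of changed genes near the 30.5% called here was not tested either. Within a group, each pair of libraries differed beyond sampling noise (chi-square per gene 3.45 to 4.99), so no library was a copy of another.

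All 10 genes are described whatever their result. Of the other pathway lists, called genes were named, at most 3 per direction and list by smallest adjusted p. The members and lists were chosen with earlier results of these data known. As alternatives, RLE size factors, no low-count filter, a stricter one (10 counts in each library), DESeq2 1.42.0, a replicate block, leaving out each library, and other thresholds were tried. One further marker list is not reported here.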

Additional observations from a re-analysis of the deposited data

How the results depend on the processing

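The number of eicosanoid genes called, 5, stayed at 5 under RLE size factors, under DESeq2, when the filter was dropped or made to ask 10 counts of each library, and with the replicate block. It ran from 4 to 5 across the fits that left out 1 library, was 6 at an unadjusted p under 0.05 (Tbxas1 added) and 4 with at least a 1.2-fold change (Pla2g4a lost). Over 11 alternatives the log2 fold change ran from -0.52 to -0.47 for Ptgs2, from -0.36 to -0.32 for Hpgds, from 0.30 to 0.37 for Alox5ap and from 0.29 to 0.41 for Ptger4, each past the threshold, and from 0.02 to 0.19 for Ptgs1 and from 0.0036 to 0.10 for Ptges, neither past it. Of the other pathway genes 16 were called, and 7 (4 rising and 3 falling) when a 1.2-fold change was also asked, which left 1517 of 4312 calls over all genes. Dpep2 also lost its call without a filter (adjusted p = 0.0502 in edgeR) and in DESeq2 (adjusted p = 0.0587). For Aloxe3 DESeq2 gave no adjusted p, and the stricter filter removed it. Without a filter Alox5 and Ltc4s had adjusted p of 0.614 each in edgeR.

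With the replicate number as a block, 5 eicosanoid genes, 17 other pathway genes and 4613 genes in all were called, against 5, 16 and 4312. Deviations of same-numbered libraries correlated at -0.018, -0.033 and -0.014 across genes, none correlated best with its own number, and the libraries share only a number. The depth limits Alox5, Ltc4s and Tbxas1, and intervals cover the spread between these libraries only.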

Other observations

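Near Ptgs2 lie genes for long non-coding RNAs, named here after their values were seen. Ptgs2os, which lies just upstream on the opposite strand in GENCODE M21, was at 4.37, 2.95 and 3.14 CPM in the CON libraries and at 2.58, 2.42 and 2.50 CPM after sTREM-1. It fell with a log2 fold change of -0.48 (adjusted p = 0.0438 by edgeR, standard error 0.18), with CON replicate 1 above the other libraries. Ptgs2os2, known as lincRNA-Cox2, was at 9.69, 9.70 and 9.04 CPM and then at 8.47, 7.72 and 9.70 CPM, so the groups overlapped, and it did not pass the test (log2 fold change -0.14, 95% interval from -0.34 to 0.07, edgeR quasi-likelihood adjusted p = 0.341). Leaving out single libraries was not run for this pair.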
